A study of Mus musculus with 48 samples.

Results

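The response of cultured mouse cells to tumour necrosis factor (TNFa) was measured after 2 h of continuous stimulation, the earliest of the 4 durations in the study. The comparison used 6 of the 48 libraries, chosen by their labels for agent and duration. TNFa alone was given at 0.1, 1 or 10 ng/ml in 3 libraries, and 3 libraries served as controls: an unstimulated culture, a culture given IL-2 at 6000 U/ml, and a culture given lymphotoxin A1 B2 at 2 ng/ml. The labels name the cells NMM, an NRAS-mutated murine melanoma line. All 6 cultures share that line and genotype, and no label says how the NRAS mutation was made or how many clones the line holds. Each library is the only one of its agent, dose and duration, so the spread within the TNFa group holds the effect of dose, and the spread within the control group holds any effect of IL-2 and lymphotoxin. RNA was measured by stranded mRNA sequencing of bulk cultures, and nothing in the labels says whether the cultures were grown on separate days.

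TNF binds a receptor at the cell surface, TNFR1, which gathers the adaptors TRADD and TRAF2, the kinase RIPK1 and the cIAP ubiquitin ligases. The IκB kinase complex is then switched on, the inhibitor IκBα is degraded, and NF-κB dimers such as RELA with p50 enter the nucleus and switch on chemokine, adhesion and survival genes. Among the first targets are genes for IκBα (Nfkbia) and A20 (Tnfaip3), which shut the pathway down again, and in tumour cells the response is known for drawing in myeloid cells and, where survival genes are blocked, for cell death.

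The 6 libraries held 5612907 to 8114091 counted reads, so that 1 read was worth 0.123 to 0.178 CPM, counts per 1000000 counted reads. Markers checked the labelled cell type. Tyr, Tyrp1, Dct and Mlana, which define pigmented melanocytes, had 0 reads in all 6 libraries, Sox10 had 1 read and Pmel 23, whereas the lineage factors Mitf (5.67 to 6.75 CPM) and Pax3 (30.7 to 37.5 CPM) were present. The summed level of the 8 melanocyte markers was 41.7 to 44.8 CPM in the controls and 37.1 to 41.2 CPM with TNFa. All 7 fibroblast markers had at least 1 read, with sums of 389 to 455 CPM in the controls and 335 to 393 CPM with TNFa. Most of that sum came from Col3a1, at 286 to 402 CPM, while Col1a1 reached 0.891 CPM at most. Leukocyte-defining Ptprc, Lyz2, Adgre1 and Tyrobp and T-cell-defining Cd3d, Cd3e, Cd8a and Cd4 were at 0 in every library, as were Nkg7 and Prf1. Other members of those lists had reads: Cd68 had 128 (2.01 to 4.25 CPM), Trac 19, Csf1r 5, and Itgam and Gzmb 1 each. Of the endothelial markers Cdh5 was at 4.81 to 6.44 CPM and Pecam1 had 5 reads, while Kdr, Tek and Emcn had 0. Mitf and Pax3 were thus measured without the pigment genes and nearly without Sox10, so the markers bear out the labelled lineage only in part. The part of the stromal genes in the results was not tested.

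The 0.1 ng/ml library stood apart from the other 5 in its noncoding RNA. Malat1, a nuclear long noncoding RNA, was at 2596 CPM there, against 544 to 876 CPM in the controls, 1019 CPM at 1 ng/ml and 596.5 CPM at 10 ng/ml. Neat1 was at 320.7 CPM against 133.0 to 182.8 CPM in the other 5, and Kcnq1ot1 at 30.9 CPM against 5.26 to 10.1 CPM. These levels are shares of all counted reads. Mitochondrial transcripts took 1.155% to 1.299% of reads with TNFa and 1.171% to 1.279% in the controls. Counts over all genes and over the gene lists are given below with and without that library.

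**Figure D1:**
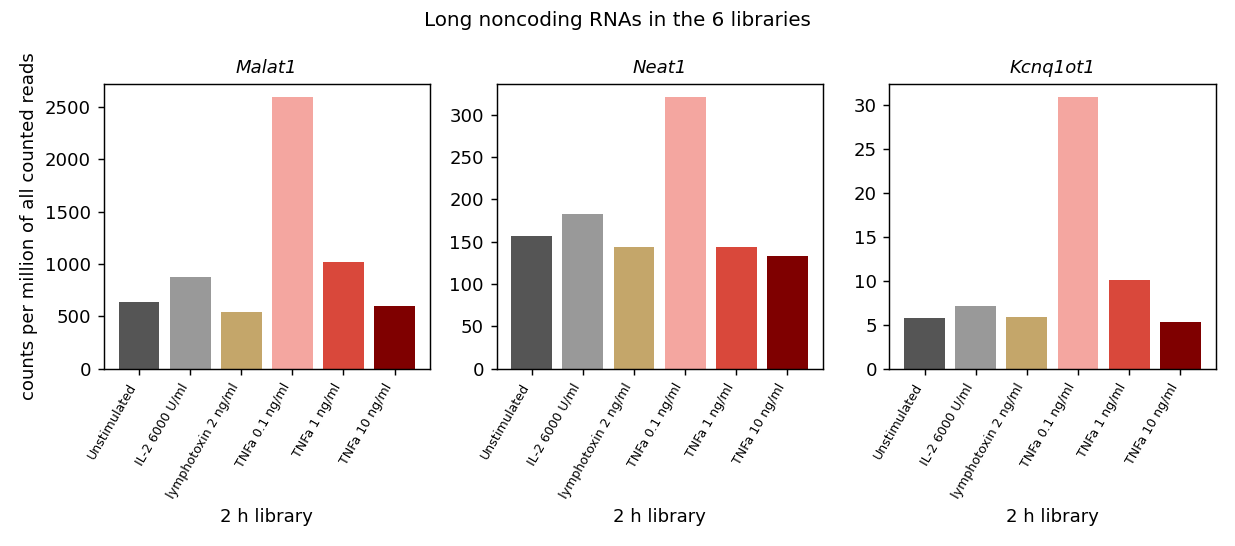
Levels of the noncoding RNAs Malat1, Neat1 and Kcnq1ot1 (vertical axes, CPM of all counted reads, from 0) in the 6 libraries of 2 h, 1 bar per library. The library of 0.1 ng/ml TNFa is the highest for each of the 3 RNAs, at 2596, 320.7 and 30.9 CPM.

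TNFa changed 899 of 11235 tested genes at 2 h (8%), 590 higher (5.25%) and 309 lower (2.75%), by edgeR's quasi-likelihood test at a Benjamini-Hochberg adjusted p under 0.05. The median log2 change of the higher genes was 0.36, 418 of them rose by less than 1.5-fold, and 69 rose by at least 2-fold. Among the lower genes the median was -0.34, 253 fell by less than 1.5-fold and 13 by at least 2-fold. TNFa and control libraries did not overlap in 586 of the 590 higher and 307 of the 309 lower genes, beside 25.6% of all tested genes without overlap in either direction. Without the 0.1 ng/ml library 1125 genes passed, 822 of the 899 among them. Left out in turn, lymphotoxin gave 528 genes and IL-2 597, and with the unstimulated library as the only control 257 passed. In bulk cultures a change in the share of responding cells and a change in RNA per cell cannot be told apart.

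The 5 largest increases were in an enzyme gene, Acod1, the chemokines Cxcl1 and Ccl2, the receptor gene Ccrl2 and the adhesion gene Vcam1. Gene values below are CPM scaled by edgeR's TMM factors, in the order unstimulated, IL-2 and lymphotoxin, then TNFa at 0.1, 1 and 10 ng/ml, and changes are log2 ± SE over 3 against 3 libraries with an adjusted p from edgeR. Acod1 (ENSMUSG00000022126, chr14:103046977-103056573), the enzyme that makes itaconate in activated macrophages, was at 1.42, 0.707 and 1.06 CPM in the controls and 17.1, 26.01 and 34.2 CPM with TNFa. Its lowest TNFa library stood far above the highest control, a change of 4.53 ± 0.47 (adjusted p = 0.00218). Cxcl1, a chemokine for neutrophils, was at 1.85, 2.12 and 1.52 CPM in the controls and 14.98, 29.01 and 36.8 CPM with TNFa, a change of 3.87 ± 0.60 (adjusted p = 0.0292). Ccl2, a chemokine for monocytes, was at 37.1, 42.1 and 37.7 CPM in the controls and 319, 491 and 674 CPM with TNFa, a change of 3.67 ± 0.39 (adjusted p = 0.0116). For both chemokines the lowest TNFa library was several-fold above the highest control, and each dose was above the one below it. Ccrl2, an atypical receptor that presents chemerin, was at 0.7098, 0.707 and 0.456 CPM in the controls and 5.99, 8.503 and 13.6 CPM with TNFa, a change of 3.86 ± 0.44 (adjusted p = 1.85e-04). Vcam1, an adhesion molecule for integrin-bearing leukocytes, was at 7.38, 8.31 and 6.53 CPM in the controls and 56.9, 73.4 and 118 CPM with TNFa, a change of 3.48 ± 0.46 (adjusted p = 0.0222). For these 5 genes the library of 10 ng/ml was the highest. They were named among called genes whose groups do not overlap, so the lack of overlap is set by that choice.

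The other 15 of the 20 largest increases ran from 3.01 for Tlr2, a receptor for bacterial lipoproteins, to 2.04 for Birc3, which encodes the ubiquitin ligase cIAP2. Among them were Traf1, an adaptor at TNF-family receptors (2.97 ± 0.38, adjusted p = 2.93e-05), Cd83, a marker of mature dendritic cells (2.91 ± 0.44, adjusted p = 2.17e-04), and the chemokines Ccl9 (2.85) and Ccl7 (2.56). Nfkbie, which encodes IκBε (2.76 ± 0.23, adjusted p = 1.99e-04), Nlrp3, the inflammasome sensor (2.75), and Fas, the death receptor (2.42), also rose. Slc2a6, a sugar transporter of the GLUT family, rose by 2.72, Olr1, a receptor for oxidised LDL, by 2.65, Stx11, a syntaxin of vesicle fusion, by 2.29, and Tnip3, a partner of A20, by 2.26. Scn4a, the sodium channel of skeletal muscle, was at 0.284, 0.354 and 0.456 CPM in the controls and 3.91, 2.001 and 2.17 CPM with TNFa (2.84 ± 0.48, adjusted p = 6.65e-04). Ifnb1, the interferon-β gene, was at 0.426, 0.884 and 0.7596 CPM in the controls and 1.69, 3.88 and 3.77 CPM with TNFa (2.17 ± 0.43, adjusted p = 0.00245). Both had few reads in every control, as did Ccrl2, Traf1, Cd83, Ccl9, Nlrp3 and Olr1, so the size of these changes is imprecise. These genes passed the read filter through their TNFa libraries alone, so a place among the largest increases was open to them only if they rose. With scaling over all 2 h libraries, the controls were at 0.141 to 0.752 CPM for Nlrp3 and 0 to 0.698 CPM for Olr1. Reads of near-identical family members, such as those of the CC chemokine, Ifit, Gbp and H2 families, may be split between genes in the deposited counts.

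**Figure D2:**
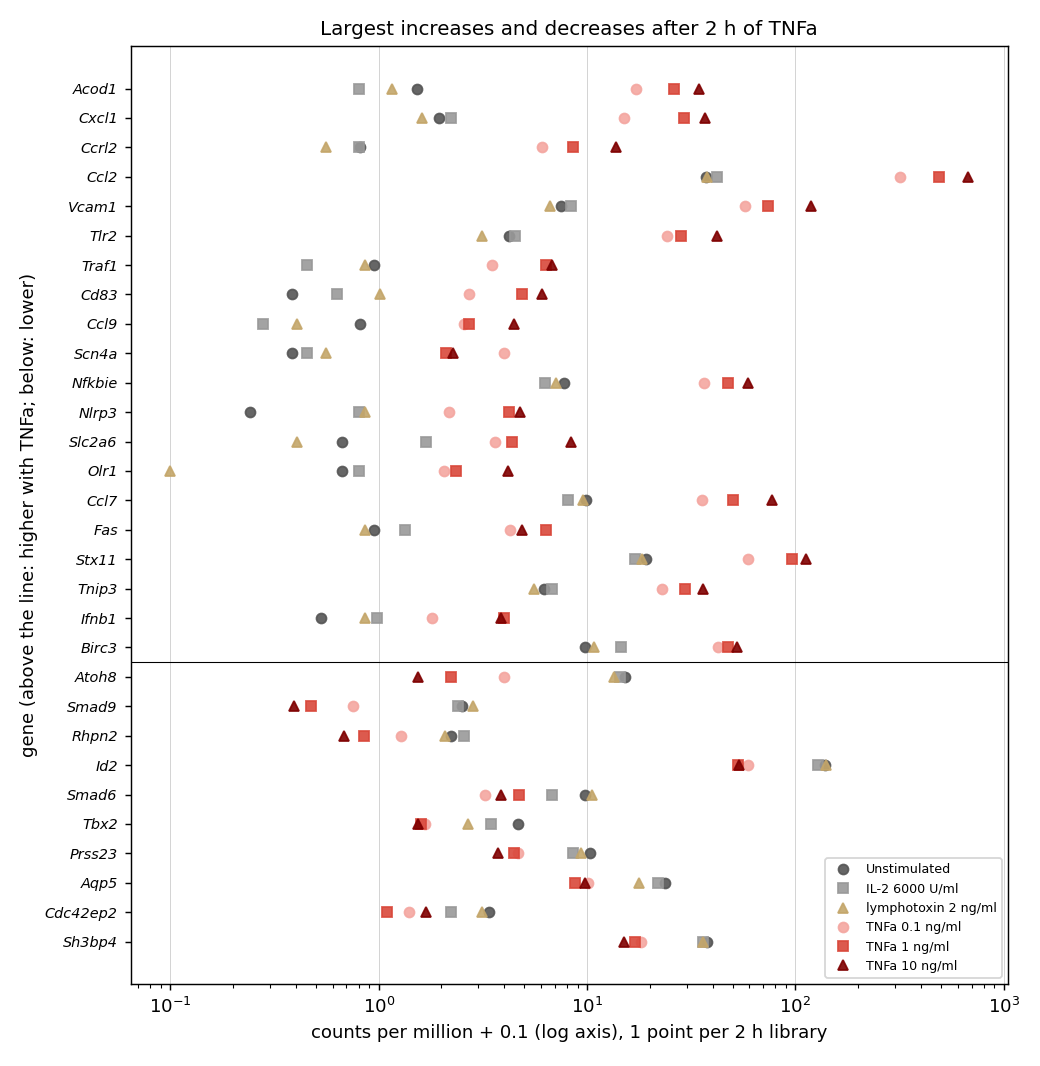
CPM + 0.1 on a log axis (horizontal) for the 20 largest increases and the 10 largest decreases among called genes whose groups do not overlap, 1 point per library of 2 h, grey and tan for controls and red shades for TNFa. Every red point lies to the right of the control points above the line and to the left below it, and for Acod1 the TNFa libraries sit between 17.1 and 34.2 CPM.

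A κB site is the DNA motif that NF-κB dimers bind. The promoters of genes among the 20 largest increases were searched for GGNNTTTCC and its reverse complement GGAAANNCC, which cannot match at the same bases, in 250 bases before to 50 bases after each RefSeq start site (GRCm38.p6, the build named in the submitters' processing notes). Of the 20 genes 16 had a promoter in the table, and 7 of them held a match (43.8%): Acod1, Cxcl1, Ccrl2, Ccl9, Nlrp3, Tnip3 and Ifnb1. Among all genes higher with TNFa, 70 of 445 with a promoter held one (15.7%), against 12 of 235 lower genes (5.11%) and 622 of 8596 genes tested (7.24%). Of all 32851 promoters given by RefSeq 1913 held a match (5.82%). A match is a match of letters, not a bound site, and a gene with several start sites counted once if any held it. The 6 of the 7 with the largest change are shown so that the site can be read in its context, as the bases from 180 to 21 before the start, 5′ to 3′ on the gene's strand, with matches in capitals on either strand. They are chr14:103046832-103046991 (plus strand), chr5:90891065-90891224 (plus), chr9:111057539-111057698 (minus), chr11:83578657-83578816 (minus), chr11:59541389-59541548 (plus, the upstream of 2 start sites) and chr6:65590218-65590377 (plus).
Acod1: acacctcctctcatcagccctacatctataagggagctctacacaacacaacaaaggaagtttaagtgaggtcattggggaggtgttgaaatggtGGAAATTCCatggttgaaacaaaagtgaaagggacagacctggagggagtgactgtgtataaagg
Cxcl1: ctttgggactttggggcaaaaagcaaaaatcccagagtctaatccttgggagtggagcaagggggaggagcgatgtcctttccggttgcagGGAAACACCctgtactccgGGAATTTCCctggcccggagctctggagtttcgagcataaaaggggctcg
Ccrl2: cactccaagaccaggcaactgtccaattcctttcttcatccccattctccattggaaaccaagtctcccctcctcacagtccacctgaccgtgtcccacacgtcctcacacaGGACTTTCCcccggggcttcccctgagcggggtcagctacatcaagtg
Ccl9: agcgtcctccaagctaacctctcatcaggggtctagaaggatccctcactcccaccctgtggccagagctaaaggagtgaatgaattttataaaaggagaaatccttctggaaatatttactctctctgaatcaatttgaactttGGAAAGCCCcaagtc
Nlrp3: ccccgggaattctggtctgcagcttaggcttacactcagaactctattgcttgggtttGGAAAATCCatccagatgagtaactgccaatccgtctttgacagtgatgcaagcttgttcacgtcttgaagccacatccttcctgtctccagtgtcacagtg
Tnip3: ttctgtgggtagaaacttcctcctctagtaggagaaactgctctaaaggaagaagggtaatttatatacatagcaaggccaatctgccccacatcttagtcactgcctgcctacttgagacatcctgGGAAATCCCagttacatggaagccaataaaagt
Matches began 85 bases before the start in Acod1, 89 and 70 in Cxcl1, 68 in Ccrl2, 35 in Ccl9, 122 in Nlrp3 and 53 in Tnip3. Before its other start site Nlrp3 held a match that began at 94 bases, on the other strand from the one shown. Ccrl2 held no match at its other start sites. Cxcl1 held a pair of matches in the printed stretch, and each of the other 5 held a single match there. Ifnb1, not shown, held a match that began 115 bases before its start.

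Of 25 genes of the receptor complex 24 were tested, 3 rose (12.5%, beside 5.25% of all genes tested) and none fell, and the median log2 change was 0.058, beside -0.0078 over all genes tested. Birc2, the ubiquitin ligase cIAP1, was at 20.02, 20.5 and 17.2 CPM in the controls and 30.5, 32.3 and 30.7 CPM with TNFa. Every TNFa library was above every control (0.70 ± 0.10, adjusted p = 8.75e-05). Tbk1, an IKK-related kinase (0.24), and Cflar, the caspase-8 inhibitor cFLIP (0.21), rose less. The receptor genes did not pass: Tnfrsf1a, for TNFR1, changed by -0.18 ± 0.057 (adjusted p = 0.0635) and Tnfrsf1b, for TNFR2, by 0.093 ± 0.088 (adjusted p = 0.616).

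Transcripts of NF-κB subunits rose in 5 of 6 members, all tested (83.3%, beside 5.25% of all genes tested, median 0.95). Relb was at 28.8, 26.9 and 24.6 CPM in the controls and 61.3, 73.9 and 83.3 CPM with TNFa (1.44 ± 0.11, adjusted p = 1.11e-06). Nfkb2, for p100, was at 79.4, 78.7 and 75.5 CPM in the controls and 165, 214 and 231 CPM with TNFa (1.38 ± 0.14, adjusted p = 0.00224), and Nfkb1, for p105, at 164, 180.4 and 164 CPM in the controls and 340.3, 415 and 521 CPM with TNFa (1.33 ± 0.19, adjusted p = 0.0257). All 3 were above every control at each dose. Rela (0.57) and Rel (0.52) rose less, and Map3k14, which encodes the kinase NIK of the noncanonical pathway, did not pass (-0.31 ± 0.15, adjusted p = 0.247).

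In the list of NF-κB feedback inhibitors and IκB family genes, 12 of 19 tested members of 20 rose (63.2%, beside 5.25% of all genes tested). None fell, and the median was 1.11. Not all members are inhibitors: Traf1 and Tifa are adaptors and Birc3 encodes a ubiquitin ligase. Beside Traf1, Nfkbie, Birc3 and Tnip3, the members that rose included Tnip1, a partner of A20 (1.75), and Bcl3, an atypical IκB protein (1.74). Tifa, an adaptor for TRAF6 (1.20), and Nfkbib, for IκBβ (1.11), rose too. Nfkbia was at 28.7, 25.5 and 22.9 CPM in the controls and 61.1, 109 and 148 CPM with TNFa. The groups did not overlap, and the levels at 1 and 10 ng/ml were well above that at 0.1 ng/ml. In a comparison of 3 against 3 that spread over dose counts as error, and the change of 2.03 ± 0.44 missed the threshold (adjusted p = 0.0826). Tnfaip3 was at 73.3, 80.1 and 77.9 CPM in the controls and 152, 245 and 363 CPM with TNFa, again with groups apart and a change of 1.72 ± 0.39 (adjusted p = 0.0947). In a fit that gives dose its own term, the change at 1 ng/ml was 1.96 ± 0.083 for Nfkbia (adjusted p = 2.96e-14) and 1.63 ± 0.05 for Tnfaip3 (adjusted p = 4.26e-17). That fit called 1341 genes, 898 of the 899 among them. It has 1 library per dose, and most of its 3 residual degrees of freedom come from the controls. Its p-values therefore do not measure the spread between cultures given the same dose. Nfkbiz, the atypical IκBζ, did not pass (0.20 ± 0.12, adjusted p = 0.401).

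Of 18 chemokines 9 had enough reads to test, and their median change was 2.56. Among the 9, 7 rose (77.8%, beside 5.25% of all genes tested) and 1 fell (11.1%, beside 2.75%). The 9 that were not tested had too few reads in these libraries, so the count does not speak for the list as a whole. Ccl9 and Cxcl2 passed the read filter through their TNFa libraries alone, and low members that stayed low were left out. The shares and the median therefore do not measure how often chemokine genes rose. Beside Cxcl1, Ccl2, Ccl9 and Ccl7, those that rose were Cxcl10, a ligand of CXCR3 on T cells, Ccl5, which attracts T cells and monocytes, and Cx3cl1, a membrane-bound chemokine. Cxcl10 was at 146, 140.4 and 129 CPM in the controls and 406, 419 and 614 CPM with TNFa (1.79 ± 0.21, adjusted p = 0.0163), and its 3 TNFa libraries were all above the controls. Ccl5 changed by 0.98 ± 0.12 (adjusted p = 2.12e-05) and Cx3cl1 by 0.60 ± 0.093 (adjusted p = 2.74e-04). Cxcl12, a chemokine of stromal cells, was the single member that fell, from 11.5, 13.6 and 13.7 to 9.25, 8.13 and 7.54 CPM (-0.63 ± 0.14, adjusted p = 0.00759). Cxcl2 had 2 reads in the 3 controls together and 116 with TNFa, a ratio of 48.3 per counted read (95% counting interval 13.1 to 403), and missed the threshold (adjusted p = 0.0633). Among members below the filter, Cxcl16 had 6 reads in the controls and 56 with TNFa, Cxcl9 had 5 and 31, and Ccl20 6 and 20.

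Cytokine and growth factor genes were tested for 16 of 26 members, with a median of 0.43. Of these 8 rose (50%, beside 5.25% of all genes tested) and none fell. Beside Ifnb1, Il6 was at 2.13, 2.65 and 2.28 CPM in the controls and 5.21, 6.88 and 11.3 CPM with TNFa (1.71 ± 0.30, adjusted p = 0.00188). Lif, a cytokine of the IL-6 family, was at 853, 872 and 830.4 CPM in the controls and 1394, 1622 and 1937 CPM with TNFa (0.95 ± 0.13, adjusted p = 0.0144). Tslp, an epithelial cytokine, changed by 1.20, Pdgfb, a platelet-derived growth factor chain, by 1.18, Csf1, the macrophage growth factor, by 0.61 and Inhba, an activin subunit, by 0.59. Hbegf, an EGF-family ligand, rose by 0.27. Tnf itself had 0 reads in the controls and 1 with TNFa, Il1b had none, and Csf2 had 8 and 36.

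Surface receptors and adhesion genes rose in 10 of 17 tested members of 20 (58.8%, beside 5.25% of all genes tested), with a median of 0.54. After Vcam1, Tlr2, Cd83 and Fas came Il15ra (1.89), which presents IL-15, Ifngr2, a chain of the interferon-γ receptor, and Cd274, for the checkpoint ligand PD-L1. Ifngr2 was at 34.9, 37.7 and 29.5 CPM in the controls and 69.02, 76.5 and 77.8 CPM with TNFa (1.13 ± 0.085, adjusted p = 6.64e-08). Cd274 was at 15.5, 21.7 and 15.5 CPM in the controls and 34.9, 36.6 and 40.01 CPM with TNFa (1.09 ± 0.12, adjusted p = 3.17e-06). Every dose was above every control for both. Icam1, the partner of LFA-1, was below the filter, with 3 reads in the controls and 46 with TNFa. Sele, for E-selectin, did not pass (1.06 ± 0.29, adjusted p = 0.0723).

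Survival and death genes were tested for 25 of 29 members, with a median of 0.041. Of these 5 rose (20%, beside 5.25% of all genes tested) and 2 fell (8%, beside 2.75%). Casp4, the caspase-11 of inflammatory cell death, was at 4.83, 2.65 and 4.41 CPM in the controls and 13.3, 10.9 and 11.9 CPM with TNFa (1.57 ± 0.19, adjusted p = 1.23e-05). Fas and Cflar, given above, are also in this list. The BH3-only gene Bcl2l11, for BIM, rose by 0.92 ± 0.10 (adjusted p = 5.73e-06) and Bid by 0.45 ± 0.10 (adjusted p = 0.00668), while Bmf, also BH3-only, fell from 7.098, 10.6 and 7.75 to 4.82, 4.25 and 2.61 CPM (-1.09 ± 0.22, adjusted p = 0.00302). Bcl2l1, for the survival protein BCL-XL, fell (-0.27 ± 0.048, adjusted p = 8.06e-04). BIM, BID and BMF promote cell death, and 2 of these 3 genes rose while 1 fell.

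Immediate early and MAPK feedback genes rose in 9 and fell in 3 of 37 members, all tested, with a median of 0.15. These are 24.3% higher and 8.11% lower, beside 5.25% and 2.75% of all genes tested. The largest rise was in Zfp36, for tristetraprolin, which destabilises cytokine mRNA, at 40.6, 40.3 and 41.6 CPM in the controls and 59.1, 68.9 and 86.1 CPM with TNFa (0.80 ± 0.13, adjusted p = 0.00338). Dusp5, an ERK phosphatase, changed by 0.71, and Maff (0.55), Jun (0.36), Fosl1 (0.35), Trib1 (0.44) and Spry4 (0.40) rose less. Trib2, a pseudokinase, fell from 62.9, 59.8 and 58.6 to 35.03, 32.5 and 25.5 CPM (-0.96 ± 0.093, adjusted p = 1.44e-06), and Nr4a1 (-0.38) and Dusp1 (-0.37) fell too. Egr1 (0.0028 ± 0.059, adjusted p = 0.987) and Fos (-0.22 ± 0.29, adjusted p = 0.774) did not pass.

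Of 33 tested interferon-stimulated genes of 34, 13 rose at 2 h (39.4%, beside 5.25% of all genes tested). None fell and 20 did not pass, with a median of 0.21. Rsad2, the antiviral viperin, was at 406, 403 and 373 CPM in the controls and 655, 584 and 701 CPM with TNFa (0.72 ± 0.06, adjusted p = 2.30e-06). Gbp5, a guanylate-binding protein, rose by 1.22 ± 0.14 (adjusted p = 1.20e-05) and Mx2 by 0.79 ± 0.10 (adjusted p = 1.43e-05), while Ifit1, Ifit2 and Ifit3 rose by 0.33, 0.31 and 0.34. Irf1, a transcription factor of this programme, had a rising slope over dose and missed the threshold against the controls, at 26.1, 31.3 and 27.6 CPM in the controls and 50.8, 66.7 and 107 CPM with TNFa (1.39 ± 0.36, adjusted p = 0.128). Without the 0.1 ng/ml library 14 members were higher and 1 was lower. Of 16 genes of MHC class I presentation, all tested, 5 rose (31.2%, beside 5.25%) and none fell, with a median of 0.19. The largest were Psme2, of the PA28 activator (0.36), and Psmb10, of the immunoproteasome (0.36), and H2-K1 rose by 0.22.

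Enzymes of inflammation and redox rose in 9 of 15 tested members of 22 (60%, beside 5.25% of all genes tested). In this list 1 fell (6.67%, beside 2.75%), and the median was 0.52. After Acod1 the largest change was in Ptges, the prostaglandin E synthase, at 64.5, 62.8 and 73.8 CPM in the controls and 151, 239 and 276 CPM with TNFa (1.73 ± 0.29, adjusted p = 0.0429). Its partner Ptgs2, for COX-2, was at 4527, 4645 and 4558 CPM in the controls and did not pass (0.074 ± 0.039, adjusted p = 0.307). The metalloproteinases Mmp10 (1.29), Mmp13 (1.08) and Mmp3 (0.45) rose, as did Slc7a11, the cystine transporter (0.82 ± 0.062, adjusted p = 1.21e-06), and Sod2, the mitochondrial superoxide dismutase (0.57 ± 0.10, adjusted p = 8.83e-04). Nos2 had 0 reads in the controls and 1 with TNFa, and Ch25h 9 and 57.

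**Figure D3:**
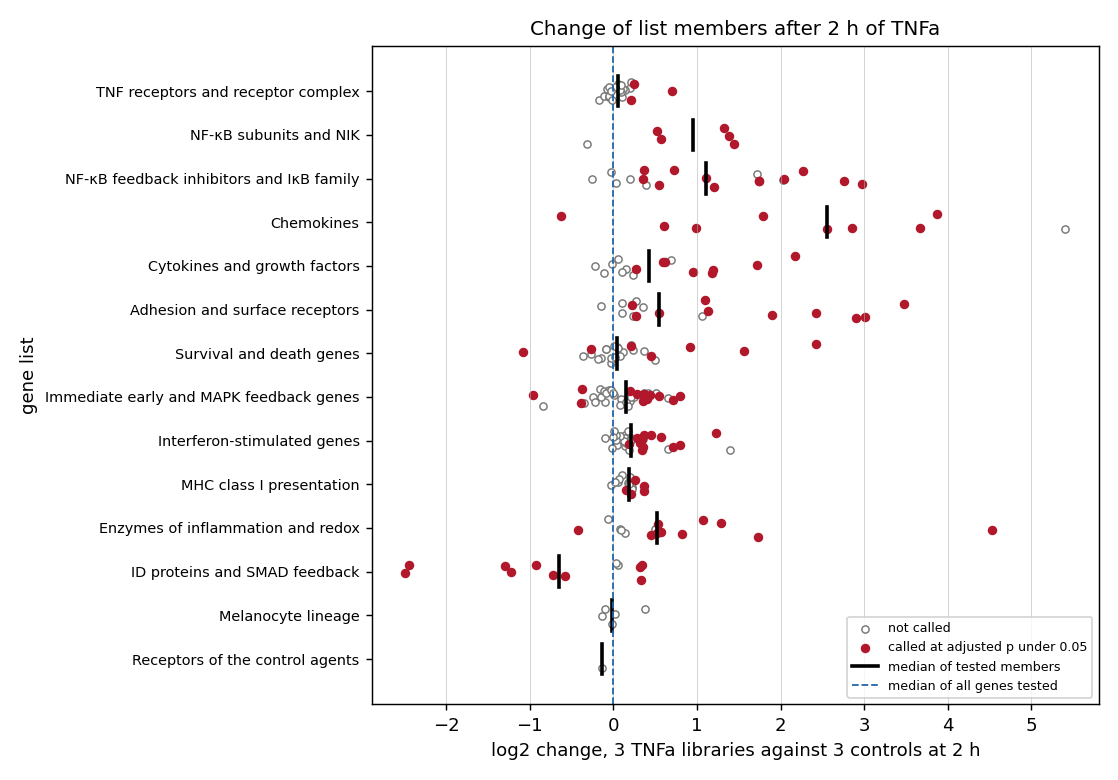
Log2 change of each tested list member (horizontal axis, 3 TNFa against 3 control libraries of 2 h), filled red where called at an adjusted p under 0.05, with a black bar at the list's median and a dashed line at the median of all genes tested (-0.0078). Medians run from 2.56 for the chemokines to -0.65 for the ID proteins and SMAD feedback genes.

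The decreases included the ID protein genes Id1, Id2, Id3 and Id4. ID proteins, which block basic helix-loop-helix factors and are known targets of BMP signalling, and SMAD feedback genes fell in 7 of 12 tested members of 13, beside 2.75% of all genes, with 3 higher and a median of -0.65. Id2 (ENSMUSG00000020644, chr12:25093801-25096092) was at 138, 128 and 140.1 CPM in the controls and 58.99, 52.6 and 53.3 CPM with TNFa. All 3 TNFa libraries lay far below every control, a change of -1.30 ± 0.063 (adjusted p = 1.49e-10). Id1 was at 50.5, 42.97 and 42.1 CPM in the controls and 23.7, 23.8 and 23.9 CPM with TNFa (-0.93 ± 0.091, adjusted p = 1.31e-06), and Id3 at 233, 207 and 203 CPM in the controls and 133, 131 and 126 CPM with TNFa (-0.72 ± 0.056, adjusted p = 7.80e-08). For both, the spread between the TNFa libraries was less than that between the controls. Id4 also fell (-0.58 ± 0.14, adjusted p = 0.0143).

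Atoh8, a helix-loop-helix factor, had the largest decrease among genes tested, at 15.05, 14.3 and 13.4 CPM in the controls and 3.91, 2.13 and 1.45 CPM with TNFa (-2.49 ± 0.22, adjusted p = 4.97e-07). Smad9, a receptor-regulated SMAD of the BMP branch, fell from 2.41, 2.299 and 2.73 to 0.651, 0.375 and 0.2899 CPM (-2.44 ± 0.42, adjusted p = 7.15e-04), and Smad6, an inhibitory SMAD, from 9.65, 6.72 and 10.5 to 3.13, 4.63 and 3.77 CPM (-1.23 ± 0.21, adjusted p = 5.80e-04). The members that rose were Tgif1, a SMAD corepressor (0.34), Grem1, a secreted BMP antagonist (0.33 ± 0.041, adjusted p = 1.84e-05), and Smad7, the inhibitory SMAD of the TGF-β branch (0.32). For each of the 3 every TNFa library was above every control. Without the 0.1 ng/ml library 3 members rose and 7 fell, and the median was -0.70. Other genes among the 10 largest decreases were Rhpn2, a rhophilin (-1.35), Tbx2, a T-box repressor (-1.22), Prss23, a serine protease (-1.15), Aqp5, a water channel (-1.15), Cdc42ep2, an effector of CDC42 (-1.14), and Sh3bp4, an endocytic adaptor (-1.13 ± 0.10, adjusted p = 2.71e-07).

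Without the 0.1 ng/ml library more members passed in most lists. Members of the feedback and IκB list then rose in 15 of 19 tested and chemokines in 10 of 11. Cytokines and growth factors rose in 9 of 17, and adhesion and surface receptor genes in 14 of 18. Immediate early genes rose in 13 of 37, enzymes in 12 of 16, MHC class I genes in 6 of 16 and survival and death genes in 6 of 25. For NF-κB subunits and the receptor complex the counts were 5 of 6 and 3 of 24. Over all genes 744 of 11350 were then higher.

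Of the 30 largest changes, 21 kept their call whichever of the 6 libraries was left out. With the unstimulated library as the only control 17 of the 30 lost it, and in a fit of 24 libraries 15 did, Acod1 in both cases. Cxcl1, Ccl2, Vcam1, Ccl7 and Stx11 lost theirs without any 1 of the controls or without the 1 ng/ml library, with adjusted p up to 0.167. Rhpn2 lost it in 5 of the 6 cases and kept it without the 0.1 ng/ml library. Cdc42ep2 lost it without the unstimulated, lymphotoxin, 0.1 or 1 ng/ml library, Tbx2 without the unstimulated or 1 ng/ml library and Slc2a6 without the unstimulated one.

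The control agents gave few large differences. Set against the unstimulated library, where 5 CPM was reached in 1 of the pair, 10 of 9926 genes differed by at least 2-fold with IL-2 and 10 of 9925 with lymphotoxin. TNFa at 0.1, 1 and 10 ng/ml gave 105 of 9971, 83 of 9955 and 115 of 9927, and since each figure rests on 1 library against 1 there is no test. Il2ra, a chain of the IL-2 receptor, had 0 reads in all 6 libraries and Il2rb, another, had 20 in the controls, while Ltbr, the lymphotoxin-β receptor, was at 87.5, 85.1 and 95.1 CPM. The median log2 ratio of the tested chemokines was -0.063 with IL-2 and -0.18 with lymphotoxin, and that of the interferon-stimulated genes 0.11 and 0.0018.

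Dose was tested as a slope, the log2 change per 10-fold step within the TNFa group. The slope passed at an adjusted p under 0.05 in 213 genes, 83 rising with dose (0.739% of genes tested) and 130 falling (1.16%). Rising slopes were called in 6 of 19 tested members of the feedback and IκB list, 4 of 9 chemokines, 3 of 6 NF-κB subunits and 7 of 15 enzymes. In 81 of the 83 rising genes the fitted change from control was above 0, a count given without its share over all genes. This test shares its TNFa and control libraries with the comparison above. Cxcl2 had the largest slope (0.98 ± 0.21, adjusted p = 0.0104), followed by Gadd45b, a stress-response gene (0.85 ± 0.17, adjusted p = 0.00834). Gadd45b was at 7.098, 4.77 and 4.41 CPM in the controls and 2.73, 6.75 and 9.86 CPM with TNFa, lowest of all 6 libraries at 0.1 ng/ml and highest at 10 ng/ml. Clec4e, the receptor Mincle, was at 1.14, 1.06 and 1.82 CPM in the controls and 11.5, 22.9 and 35.5 CPM with TNFa (slope 0.79 ± 0.091, adjusted p = 9.45e-06). Irf5, an interferon regulatory factor, had a slope of 0.70 ± 0.15 (adjusted p = 0.0113), Mmp12, the macrophage elastase, one of 0.62 ± 0.16 (adjusted p = 0.0431) and Cxcl1 one of 0.62 ± 0.089 (adjusted p = 2.73e-04). Nfkbia and Tnfaip3, given above, had slopes of 0.62 ± 0.057 (adjusted p = 4.54e-07) and 0.62 ± 0.037 (adjusted p = 2.92e-10).

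Other genes that rose against the controls had no called slope. Birc3 was at 9.65, 14.5 and 10.6 CPM in the controls and 42.5, 47.4 and 52.04 CPM with TNFa, with a slope of 0.15 ± 0.071 (adjusted p = 0.392). Ifngr2 (0.087 ± 0.058, adjusted p = 0.569), Bcl2l11 (0.14 ± 0.071, adjusted p = 0.434) and Id2 (-0.075 ± 0.057, adjusted p = 0.63) also missed the threshold. For Id1 the slope was 0.0065 ± 0.086 (adjusted p = 0.988). A slope that misses the threshold does not show that dose had no effect.

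**Figure D4:**
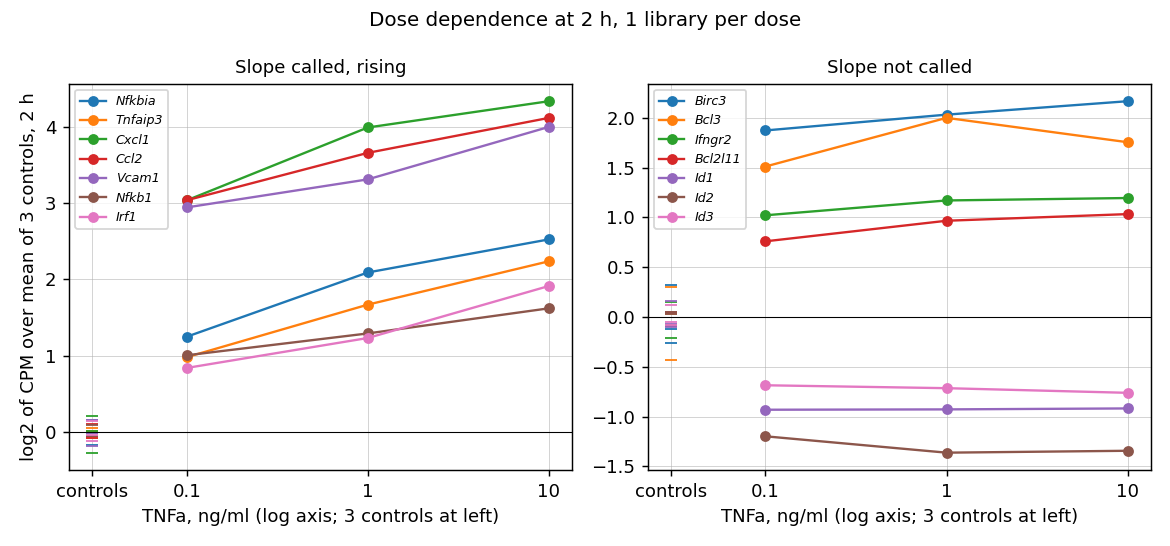
Log2 of CPM over the mean of the 3 controls (vertical axis) against TNFa dose in ng/ml (log axis, 1 library per dose, dashes at the left for the 3 controls). Genes at the left rise at each step, such as Tnfaip3 from 152 to 363 CPM, whereas those at the right had no called slope, such as Id1 at 23.7 to 23.9 CPM.

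The falling slopes were led by Kcnq1ot1, a long noncoding RNA antisense to Kcnq1, at 5.68, 7.07 and 5.77 CPM in the controls and 31.3, 10.3 and 5.36 CPM with TNFa (-1.36 ± 0.11, adjusted p = 1.21e-07). Whether the authors' counting used strand is not given in the sources used here, so reads of Kcnq1 cannot be told apart from it. Spaca6 (-0.71), Fendrr, a long noncoding RNA (-0.67), Ifi213, of an interferon-inducible family (-0.65), Gdap10 (-0.62), Syne2, for the nuclear envelope protein nesprin-2 (-0.51), Fos (-0.49) and Ccl25, a chemokine of thymus and gut (-0.48), followed when predicted genes were left aside. Of the 130, 17 were not protein coding, against 0 of the 83 rising genes and 3.93% of all genes tested. In 125 of the 130 the 0.1 ng/ml library was above all 3 controls. The choice of falling slopes itself favours a high level in that library, and the share over all genes is not given here. This is the library with the high Malat1 and Neat1 levels, and the part of what sets it apart in these slopes was not tested. Fos was at 31.8, 36.8 and 38.3 CPM in the controls and 38.2, 34.5 and 18.3 CPM with TNFa, with its lowest level at 10 ng/ml. Without the 0.1 ng/ml library, which leaves 2 doses, 6 slopes passed, 5 rising and 1 falling, and among them were Ccl2, Vcam1, Tnfaip3 and Irf1. Without 10 ng/ml 52 passed, 21 rising and 31 falling.

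TNFa was also given together with IFNy (interferon-γ), in libraries that took no part in the comparison. At 2 h 1 library had IFNy at 100 ng/ml and 1 had the same with TNFa at 10 ng/ml. Of the genes higher with TNFa alone 573 had at least 5 CPM in either, and 519 of them (90.6%) were higher with TNFa added, beside 52% of 9922 genes. A 2-fold excess was seen in 68 of the 573, and in 86 of all 9922 (0.867%). Of the lower genes 219 of 298 (73.5%) were lower, beside 48%. Nfkbia was at 22.97 CPM with IFNy alone and 185 CPM with IFNy and TNFa. Ccl2 was at 114 CPM with IFNy alone and 1066 CPM with IFNy and TNFa. The same direction was seen for Vcam1, at 12.9 CPM with IFNy alone and 172 CPM with IFNy and TNFa, and for Acod1, at 8.26 CPM with IFNy alone and 103 CPM with IFNy and TNFa. Among the genes that fell with TNFa alone, Id2 was at 129 CPM with IFNy alone and 70.04 CPM with IFNy and TNFa, and Atoh8 at 11.7 CPM with IFNy alone and 2.16 CPM with IFNy and TNFa. The gap was narrow for Smad6, at 11.3 CPM with IFNy alone and 9.66 CPM with IFNy and TNFa, and Rhpn2 was at 1.34 CPM with IFNy alone and 1.44 CPM with IFNy and TNFa. Each of these rests on 1 library a side, so the counts are descriptions with no test. Malat1 was at 1310 CPM with IFNy alone and 630.9 CPM with TNFa added.

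The change at 2 h was set against that at 6 h, with the same doses and control agents, in a fit over the 24 libraries of TNFa alone and control at 4 durations. The difference between the changes passed in 117 of 12029 genes, 35 with the higher change at 2 h (0.291%) and 82 with the lower (0.682%). Each duration has its own controls, and the 2 h libraries are those of the comparison above. High noncoding RNA levels were not confined to 2 h. At 6 h Malat1 and Kcnq1ot1 were at 1417 and 23.4 CPM with TNFa at 1 ng/ml. The other TNFa and control libraries of 6 h were at 430.9 to 632.5 and 7.006 to 8.072 CPM. Levels were also high in, for example, lymphotoxin at 12 h (2035 and 27.04 CPM) and TNFa at 10 ng/ml at 24 h (1685 and 19.05 CPM). Their part in the differences was not tested. Smad3, a transducer of TGF-β signals, changed by 0.80 ± 0.082 at 2 h and 0.16 ± 0.082 at 6 h (difference 0.64 ± 0.12, adjusted p = 0.0176). Uap1, of hexosamine synthesis, went from 0.72 ± 0.089 to -0.025 ± 0.092 (adjusted p = 0.0109), and Nfatc1, a calcium-regulated factor, from 0.63 ± 0.14 to -0.21 ± 0.14 (adjusted p = 0.0403). Fancc (0.91), Garem1 (0.73), Irgq (0.65), Bhlhe40 (0.63) and Cd14 (0.60) differed in the same direction, as did 3 genes of the immediate early list, Nr4a3 (1.31), Maff (0.50) and Spry4 (0.43). Of the 35 genes with the higher change at 2 h, 23 had also risen there, beside 590 of all 11235 genes tested at 2 h (5.25%). The same 2 h libraries enter both tests, so this overlap is partly set by the design.

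Of the 82 genes with the lower change at 2 h, 72 were not called at 2 h, 9 fell and 1 rose. Over all 11235 genes tested at 2 h, 10336 were not called, 309 fell (2.75%) and 590 rose (5.25%). Here too the 2 h libraries enter both tests. The protocadherin Pcdh18 changed by -0.90 ± 0.14 at 2 h and -0.026 ± 0.12 at 6 h (adjusted p = 0.0285). Rhobtb2 (-0.72), Amotl2, an angiomotin that binds YAP (-0.60), Ankrd1, a YAP target (-0.51), Capn10 (-0.53), Cldn12 (-0.43) and Ugcg, of glycolipid synthesis (-0.39), also had the lower change at 2 h, and Btc, an EGF-family ligand, rose less at 2 h (0.34 ± 0.088) than at 6 h (0.90 ± 0.086). Among interferon-stimulated genes, Ifih1, the RNA sensor MDA5, changed by 0.14 ± 0.12 at 2 h and 1.02 ± 0.12 at 6 h (adjusted p = 0.0285). Tap2, the peptide transporter of the MHC class I list, changed by 0.18 ± 0.22 and 1.60 ± 0.20 (adjusted p = 0.0297). The interferon-inducible GTPase genes Gbp7 (-1.36) and Iigp1 (-1.45) were also called for a lower change at 2 h, and Tap2 was the 1 of 16 members of the MHC class I list so called. Over the durations of 2, 6, 12 and 24 h the median of the interferon-stimulated list was 0.21, 0.96, 0.60 and 0.81, and that of the ID and SMAD list -0.65, -0.56, -0.15 and -0.051. The NF-κB feedback and IκB list had medians of 1.11, 0.65, 0.48 and 0.47, and in it N4bp1 alone was called, with the lower change at 2 h (-0.50). These medians of 24-library fits carry no test.

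The count of differences depended on single libraries. Left out in turn, the 2 h libraries gave 50 genes without the unstimulated one, 6 without IL-2, 10 without lymphotoxin, 13 without 1 ng/ml, 8 without 10 ng/ml and 104 without 0.1 ng/ml. At 6 h the same steps gave 9, 90, 12, 7, 23 and 100. With the 2 h and 6 h libraries alone, 389 genes passed, 114 of the 117 among them, and with agent and dose as a block over those 12 libraries 453 passed, 110 of the 117 among them. Under that block Capn10 (adjusted p = 0.0667) and Gbp7 (adjusted p = 0.058) lost the call.

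**Figure D5:**
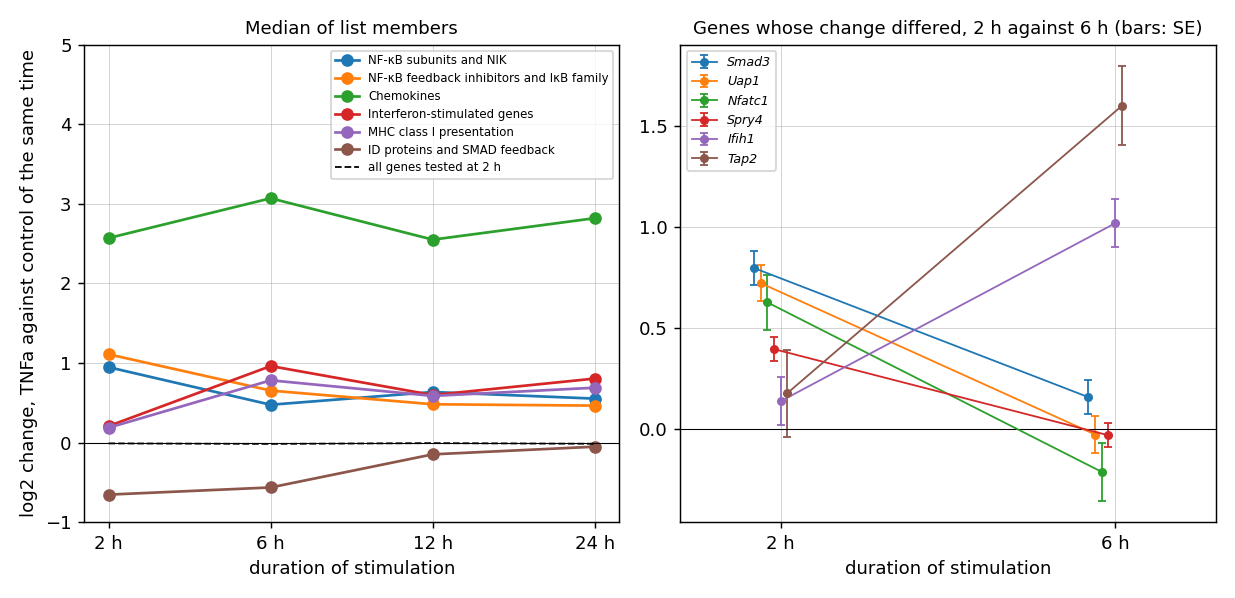
Left, median log2 change of list members (TNFa against control of the same duration) at 2, 6, 12 and 24 h, with all genes dashed near 0. Right, change at 2 h and 6 h with SE bars for 6 genes whose change differed between the durations, of which Ifih1 and Tap2 lie near 0 at 2 h (0.14 and 0.18) and at 1.02 and 1.60 at 6 h.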

How the data were processed

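RNA of the NMM cells was sequenced as stranded mRNA libraries, per the labels' protocols. The authors deposited a table of raw read counts for 49671 genes in 48 libraries. Reads were aligned with HISAT to GRCm38, per the submitters' processing notes, and the counting tool, its strand setting and the annotation are named by none of the labels, headers or notes used. Doses were taken from the sample titles, since 1 concentration label of the 0.1 ng/ml library reads 1.

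Genes passed edgeR's filterByExpr (minimum count 10, total 15) and were tested with TMM factors and the robust quasi-likelihood test in edgeR 4.0.16 (R 4.3.3, limma 3.58.1), with Benjamini-Hochberg adjustment and a threshold of 0.05. Either group alone can carry a gene past that filter. List members such as Ccl9, Cxcl2, Traf1, Cd83, Fas and Ifnb1 passed through TNFa, which raises the shares and medians of their lists. Residual degrees of freedom were 4 for TNFa against control, 3 for the slope on log10 dose and 16 for 2 h against 6 h. Those of the slope fit come mostly from the controls, so its p-values do not measure the spread between cultures of 1 dose. Each SE is the absolute log2 change over the root of its F statistic. DESeq2 1.42.0, other scalings, no filter, other sample sets and leaving out each library were alternatives. Single libraries were compared as log2 CPM ratios with a prior count of 2. The fits were run on simulated data with 200 changed genes. Those counts held no effect of a single library shared across genes, and the outcome is not given here. Nothing says that the libraries are separate cultures, and p-values measure only the spread between these samples. A total of 5612907 to 8114091 counts per library limits precision for genes under a few CPM, and counting intervals cover counting error only.

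Named genes are the 20 largest increases and 10 largest decreases among called genes whose groups do not overlap, the 8 largest slopes and 8 largest differences between 2 h and 6 h each way (the latter among genes called at 2 h), without predicted genes, and any member of a gene list. Melanocyte-lineage genes were also listed (17 members, 5 tested): none was called against control, and the slope of Sox9 rose. The comparison, the lists and the rules were chosen with earlier results of these data known. Marker sums for T and NK cells, other leukocytes and endothelium stayed at 0.287 to 0.71, 2.01 to 4.38 and 4.83 to 6.44 CPM in the 6 libraries. Results for some genes of the lists are not reported here.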

Additional observations from a re-analysis of the deposited data

Results flagged for a closer look

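The change with TNFa differed between 2 h and 6 h in 117 genes, by the test of the difference itself in edgeR's quasi-likelihood fit over 24 libraries. Differences are given as log2 change at 2 h minus log2 change at 6 h, among genes also called at 2 h. The 8 largest with the higher change at 2 h were those of Fancc (0.91), Nfatc1 (0.84), Uap1 (0.75), Garem1 (0.73), Irgq (0.65), Smad3 (0.64), Bhlhe40 (0.63) and Cd14 (0.60). The 8 largest with the lower change at 2 h were those of Pcdh18 (-0.87), Rhobtb2 (-0.72), Amotl2 (-0.60), Btc (-0.55), Capn10 (-0.53), Ankrd1 (-0.51), Cldn12 (-0.43) and Ugcg (-0.39). Amotl2 and Uap1 held the call whichever of the 12 libraries of 2 h and 6 h was left out, and the other 14 lost it in 1 or more cases.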

How the results depend on the processing

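TNFa against control at 2 h gave 899 genes, 590 higher and 309 lower. With the unstimulated library as the only control 257 passed (170 higher, 87 lower), and in a fit of 24 libraries 324 (209 higher, 115 lower). DESeq2 called 160 lower genes, and a fit with a dose term 495. The remaining alternatives on other scaling, filtering and dispersion stayed within 1.5 times the reported counts. Leaving out 1 library gave 528 (lymphotoxin) to 1125 (0.1 ng/ml) genes, 355 to 744 higher and 173 to 381 lower. Slopes on dose numbered 213, 83 rising and 130 falling. DESeq2 gave 52 (27 and 25) and no filter 415 (212 and 203). Without 1 control or TNFa library 6 to 282 passed, 5 to 124 rising and 1 to 158 falling, where leaving out a TNFa library was chosen after seeing the data. The slope of Nlrc5, a regulator of MHC class I genes, was -0.26, ran from -0.51 to 0.017 with 1 library left out, and turned above 0 (adjusted p = 0.994) without 0.1 ng/ml. For 2 h against 6 h, 117 genes passed. DESeq2 gave 208 (162 with the lower change at 2 h), no filter 247 (76 higher, 171 lower) and the 2 h and 6 h libraries alone 389 (120 higher, 269 lower). Pairing the 12 libraries of 2 h and 6 h by agent and dose as a replicate block, chosen after seeing the data, gave 453 (157 higher, 296 lower). Leaving out 1 library gave 6 to 104 genes, 2 to 33 higher and 3 to 72 lower. Of 113 named or listed genes called against control, 19 kept the call in all 13 alternatives and 79 in all 6 that left out 1 library. Of 45 called slopes 2 kept it throughout, and of 28 called differences between 2 h and 6 h 1 did. The cause of these changes was not tested beyond the smaller number of samples. Within 2 h no paired analysis was possible because each library is the only one of its agent and dose and the labels carry no replicate numbers. Depth limits genes with few reads: 1 read was worth 0.123 to 0.178 CPM.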
